A study of Homo sapiens with 28 samples.

Results

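REC8, FBXO47, STAG3, SMC1B and SYCP2 are 5 genes of meiosis, and their chromatin accessibility was followed here in an ovarian cancer cell line under the PARP inhibitor olaparib. Every consensus peak within 20 kb of the RefSeq gene body of one of them was taken, which gave 23 of the 105048 peaks. REC8 had 5 of these peaks, FBXO47 4, STAG3 7, SMC1B 1 and SYCP2 6. The body of the gene and 1 kb around it held 11 of the 23, and the other 12 lay farther out. All of these 12 but the farthest upstream peak of FBXO47 and the peak past the 3′ end of SYCP2 lay inside a neighbouring gene or nearest to the start of one. REC8 was chosen by the fall of its start peak between the T160 and T320 populations, and FBXO47 by the fall of its start peak with dose, so those values are described below and not tested. Where the distance rule ended, the peak 18307 bp from STAG3, just inside it, had a log2 fold change of -0.49 in T320 against untreated cells. The nearest peak outside the rule lay 20967 bp from SYCP2 and had a log2 fold change of 0.32 in the same comparison.

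ATAC-seq, in which a transposase cuts accessible DNA, was run on Kuramochi, an established epithelial ovarian cancer line that carries a BRCA2 mutation. All 10 groups come from this 1 line and have 2 libraries each. C is the untreated population. T5 to T320 are 7 resistant populations adapted to olaparib at 5, 10, 20, 40, 80, 160 or 320 uM, as their names give it, and kept in that dose. They were sorted for low CD24 and high CD44. C was also sorted on these surface proteins, with no profile named. P10 and P320 are drug-naive cells exposed to 10 and 320 uM for 9 days, called persister cells in the labels, with no sort named. The labels do not say that replicates were separate cultures, so p-values measure the spread between these libraries, which may be technical. Another 8 samples, T320 cells with or without drug and in part after 120 days without it, were not analysed here. Total counts in peaks ran from 9627970 to 29699950 per library. Of 12 marker genes of blood, endothelial and stromal cells, 0 had a peak at the start. Of 11 epithelial and serous markers 6 did, among them PAX8, WT1 and KRT8, while EPCAM, CDH1, KRT18, MSLN and SOX17 did not. Such a peak was present at 11961 protein-coding genes, so the 6 are not read as a sign of epithelial identity.

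Meiotic chromosomes are held by a special cohesin ring in which REC8 replaces the mitotic closing subunit, STAG3 takes the place of STAG1 or STAG2, and SMC1B that of SMC1A. SYCP2 forms the chromosome axis with SYCP3, on which the synaptonemal complex is built between homologous chromosomes. FBXO47 belongs to the F-box proteins, which bind targets for SCF ubiquitin ligases, and is needed for meiotic progression in the mouse testis. Outside the germ line, promoters of such genes are commonly held silent by DNA methylation and by repressor complexes that contain E2F6, a factor of the E2F family. Several of these genes are reactivated in tumours.

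The promoter sequences are shown because the accessibility of REC8 and FBXO47 changed at the start of each gene, and because all 5 genes share a short stretch there. All 5 had an entry in the RefSeq promoter table (GRCh38.p14). The bases before the start site are printed 5′ to 3′ on the strand of the gene. For SMC1B and SYCP2 only the stretch up to the start of the divergent neighbour, RIBC2 or FAM217B, is given. Capitals mark the letters TTCCCGC, an E2F-type sequence read on both strands, and in FBXO47 also TATTCAT. For STAG3 the 29 bases around its match before the second of 2 listed starts are given.
REC8, chr14:24171830-24172079, plus strand: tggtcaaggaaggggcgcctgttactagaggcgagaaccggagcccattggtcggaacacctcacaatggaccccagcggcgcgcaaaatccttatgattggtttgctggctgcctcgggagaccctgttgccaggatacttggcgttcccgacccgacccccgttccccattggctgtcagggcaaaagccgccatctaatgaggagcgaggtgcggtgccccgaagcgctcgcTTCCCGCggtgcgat
FBXO47, chr17:38967404-38967653, minus strand: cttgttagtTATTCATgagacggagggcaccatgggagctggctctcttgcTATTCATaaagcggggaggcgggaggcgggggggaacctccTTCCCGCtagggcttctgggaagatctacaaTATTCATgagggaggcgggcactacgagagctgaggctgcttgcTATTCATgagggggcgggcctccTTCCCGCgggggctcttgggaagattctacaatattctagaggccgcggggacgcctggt
SMC1B, chr22:45413600-45413692, minus strand: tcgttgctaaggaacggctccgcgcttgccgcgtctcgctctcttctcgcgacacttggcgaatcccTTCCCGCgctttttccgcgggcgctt
SYCP2, chr20:59933638-59933778, minus strand: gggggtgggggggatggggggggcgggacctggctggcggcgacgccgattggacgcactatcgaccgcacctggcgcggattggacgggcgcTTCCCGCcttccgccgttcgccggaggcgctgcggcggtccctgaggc
STAG3, chr7:100177900-100177928, plus strand: tgtcttgtacgTTCCCGCgcttttctgga

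TTCCCGC occurred 1 time before the starts of REC8, SMC1B and SYCP2, 2 times before that of FBXO47, and 1 time before the second start of STAG3, with 0 matches before its first start. Among the 35116 listed starts, 6.55% held it in the same 300-base window, which runs from 250 bases before to 50 after the start. A window with 2 or more matches, as in FBXO47, made up 0.453%. These letters were picked with the sequences in view, so the match is a description of the letters only. FBXO47 also held TATTCAT 4 times, and it was the 1 listed start with 4 or more copies. At least 1 copy was present in 2.84% of starts. CCAAT, the letters of the CCAAT box, occurred 3 times at REC8, 2 times at SYCP2 and 2 times at the first STAG3 start, against 34.6% of starts with at least 1. The windows of REC8, FBXO47, SMC1B and SYCP2 held 26, 16, 34 and 41 CpG dinucleotides, and the 2 STAG3 windows 20 and 30, against a median of 14. Each window lay inside the accessible peak at the start of its gene.

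REC8, the closing subunit of the meiotic cohesin ring, was open at its start (chr14:24171341-24173203) in untreated cells and after 9 days of drug, and less open in most adapted populations. Accessibility is given as CPM (counts scaled to 1 common library size by TMM), with replicate 1 before replicate 2. The start peak had 44.8 and 58.5 CPM in C, 59.4 and 58.4 in P10, and 58.4 and 57.4 in P320. The T5 libraries had 45 and 51.4 CPM, those of T10 38.8 and 35.1, those of T20 21.9 and 11.7, and those of T40 8.21 and 9.64. It then read 17.6 and 17.3 CPM in T80, 32.6 and 40.3 in T160, and 9.42 and 4.26 in T320. The order over dose was therefore not monotonic: T40 and T320 were lowest, and T160 lay between them with libraries that overlapped those of T10. The libraries of P10, P320, C and T5 overlapped in a chain, and those of T20 and T80 overlapped below T160.

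Against C, the REC8 start fell in T20 (log2 fold change -1.63 ± 0.28 SE, adjusted p = 0.00026), T40 (-2.53 ± 0.30, adjusted p = 8.5e-06) and T80 (-1.57 ± 0.28, adjusted p = 0.00033). These are edgeR quasi-likelihood tests with Benjamini-Hochberg adjustment over all 105048 peaks, and a peak counts as changed where the adjusted p is below 0.05 and the log2 fold change is 1 or more in either direction. The same holds for every test below. All 3 calls held under every alternative that was run. T5 (-0.10, adjusted p = 0.85) and T10 (-0.49, adjusted p = 0.20) did not pass. The step that chose the gene, T160 to T320, measured -2.46 ± 0.30, and T320 against C -2.97 ± 0.31. In the acute exposures the differences from C were 0.19 ± 0.27 in P10 (adjusted p = 0.62) and 0.16 ± 0.27 in P320 (adjusted p = 0.72), and the sign of both turned with scaling on gene-start peaks (-0.01 and -0.34). A p over the threshold does not show that P cells and C are alike. In a bulk library, fewer cells with an open site and a less open site per cell cannot be told apart. The labels name no sort for the P groups, so in any comparison with them sort cannot be told apart from exposure. A batch that sets the P libraries apart, which the labels do not name, could not be told apart either. In T against C, sort and adaptation cannot be told apart either, unless C was sorted for the same profile.

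The peak at the 3′ end of REC8 (chr14:24178850-24181147), which also covers the end of IPO4, a gene for a nuclear import receptor, moved with the start. Over the 10 group means of log2 CPM the Pearson correlation of both peaks was 0.925, a description over libraries they share. The 3′ peak had 29.3 and 30.5 CPM in C, 16.3 and 11.9 in T20, 13.7 and 9.28 in T40, and 22.6 and 24.0 in T160. In T320 it had 15.8 and 9.37 CPM, in P10 40.6 and 44.7, and in P320 44.4 and 45.8. All 4 libraries of the P groups were above those of C, and those of every adapted population below, with T5 the nearest at 27.2 and 27.1 CPM. The 3′ peak fell in T20 (-1.09 ± 0.23, adjusted p = 0.0013) and T40 (-1.40 ± 0.24, adjusted p = 0.00019), and it was lower in T10 than in P10 (-1.10 ± 0.22, adjusted p = 0.00070). T80 stayed short of the fold minimum (-0.91 ± 0.23, adjusted p = 0.0044). Without T20 replicate 2 (-0.87) and with an offset for the surrounding 5 Mb (-0.88) the T20 call was lost.

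In T40 and T320 the peaks around REC8 were closer to their level in C than the 2 peaks of the gene. The peak over the start of IRF9 and the end of RNF31, 10788 bp upstream, had 28.2 and 35.1 CPM in C, 23.8 and 29.2 in T40 and 20.6 and 25 in T320. The 2 peaks downstream, at the IPO4 start and in TM9SF1, had between 19.2 and 29.8 CPM in C and between 14 and 23.3 CPM in T320. None of these 3 neighbours passed in a comparison where they were tested. The wider region moved as well: the median of the 301 peaks in its 5 Mb window was -0.34 in T40, -0.21 in T160 and -0.51 in T320 against C, while the median of all peaks was 0.04, 0.01 and -0.01. DNA copy number was not analysed here, and its part in the shift of this window and of the others given below was not tested. With an offset that removes the window's shift, the REC8 start measured -2.16 in T40 (adjusted p = 5.8e-05) and -2.40 in T320.

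**Figure D1:**
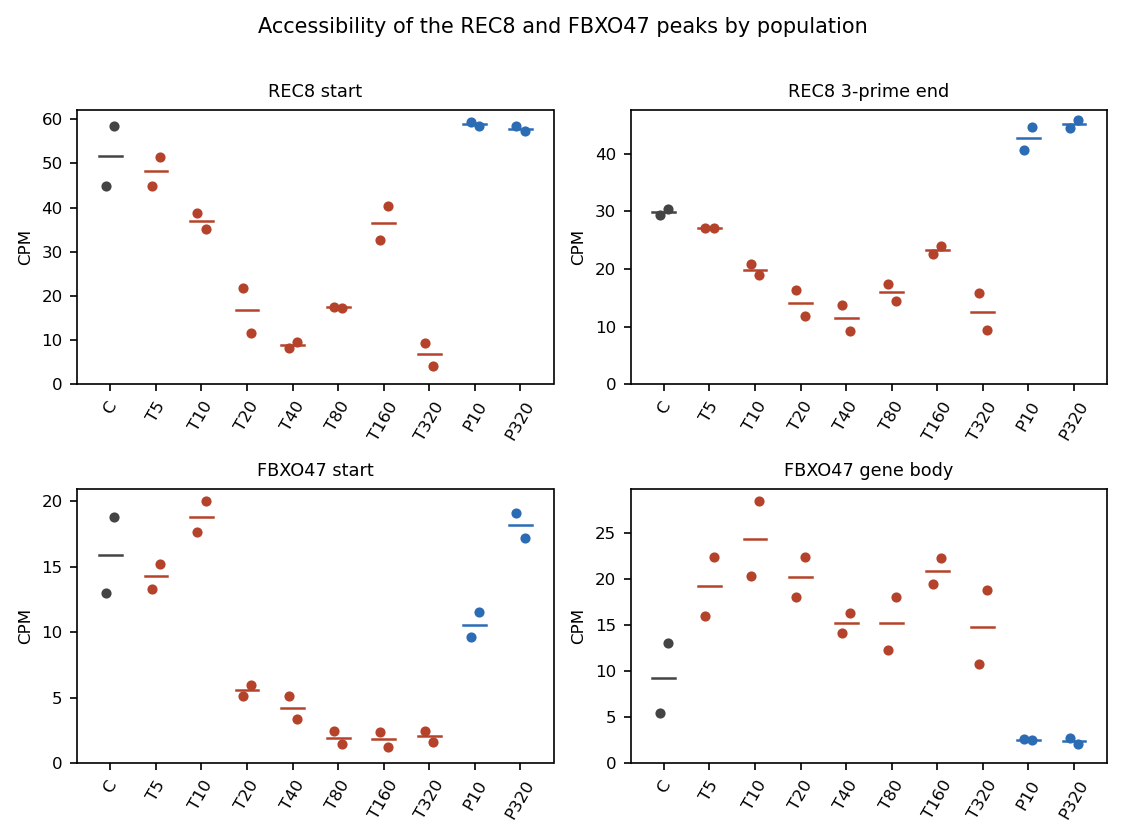
Accessibility in CPM (linear axis from 0) of the start and 3′ peaks of REC8 and the start and gene-body peaks of FBXO47, by population; each point is 1 library and each bar the mean of 2. The REC8 start is lowest in T40 and T320, with T160 at 32.6 and 40.3 CPM between them, while the FBXO47 start stays under 3 CPM from T80 on and its gene-body peak is lowest in P10 and P320.

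FBXO47 was least accessible in different populations at its start and inside the gene: the start was lowest in T80 to T320, and the peak in the gene in P10 and P320. The start peak (chr17:38967125-38968008) had 13.0 and 18.8 CPM in C. Its T5 libraries had 13.3 and 15.2 CPM and those of T10 17.6 and 20. The T20 libraries had 5.16 and 6.01 CPM, those of T40 5.1 and 3.37, those of T80 2.46 and 1.46, those of T160 2.39 and 1.25, and those of T320 2.48 and 1.66. Both T320 libraries rest on few counts, 29 and 37. The break lay between T10 and T20: no library of T20 or a higher dose reached the lowest of C, T5 or T10, and T80, T160 and T320 overlapped at the bottom. Against C the log2 fold change was -0.16 in T5 and 0.24 in T10. For T20 it was -1.51 ± 0.28, for T40 -1.95 ± 0.29, for T80 -3.07 ± 0.32, for T160 -3.16 ± 0.32 and for T320 -2.99 ± 0.32. The slope that chose the gene was -0.63 ± 0.09 per doubling of dose. In cells exposed for 9 days the start had 9.66 and 11.5 CPM in P10 and 19.1 and 17.2 in P320. P10 libraries lay below and P320 libraries overlapped those of C, and neither passed (-0.59 ± 0.27, adjusted p = 0.094, and 0.19 ± 0.26, adjusted p = 0.67). The sign in P320 turned to -0.31 with scaling on gene-start peaks, to -0.06 with the offset for the region and to -0.05 without C replicate 1.

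Inside FBXO47, 8574 bp downstream of the start, a peak (chr17:38958115-38959543) was nearly closed in both acute exposures. It had 5.50 and 13.1 CPM in C, 2.60 and 2.53 in P10, and 2.79 and 2.15 in P320. Of the adapted populations, T5 had 16 and 22.4 CPM, T10 20.3 and 28.5, T160 19.5 and 22.3, and T320 10.8 and 18.8. All 4 libraries of the P groups lay under both of C, and those of every adapted population but T80 and T320 lay above both. The peak fell in P10 (-1.89 ± 0.36, adjusted p = 0.00079) and P320 (-1.94 ± 0.35, adjusted p = 0.0011). Without C replicate 2, the higher of the C libraries, both calls were lost (-1.10, adjusted p = 0.059, and -1.15, adjusted p = 0.051). As a description, the log2 fold change was 1.37 in T10 and 0.65 in T320 against C, 3.25 in T10 against P10 and 2.59 in T320 against P320.

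A further peak 15893 bp upstream of the FBXO47 start (chr17:38982836-38983757) followed the peak in the gene and not the start. The Pearson correlation over the 10 group means was 0.961 with the gene-body peak, and -0.40 between the gene-body and start peaks. It had 2.95 and 3.54 CPM in C, 6.85 and 4.57 in T10, 3.60 and 5.15 in T320, 1.72 and 1.92 in P10, and 1.80 and 2.04 in P320. The P groups were thus lowest here too, at -0.84 (adjusted p = 0.032) and -0.76 (adjusted p = 0.067) against C, both short of the fold or p threshold. The 223 peaks of the surrounding 5 Mb window moved the other way from the start, with a median of 0.29 in T40, 0.42 in T160 and 0.22 in T320 against C. REC8 and FBXO47 starts correlated at 0.691 over the 10 group means, and they part at T160, where REC8 had 32.6 and 40.3 CPM and FBXO47 2.39 and 1.25.

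**Figure D2:**
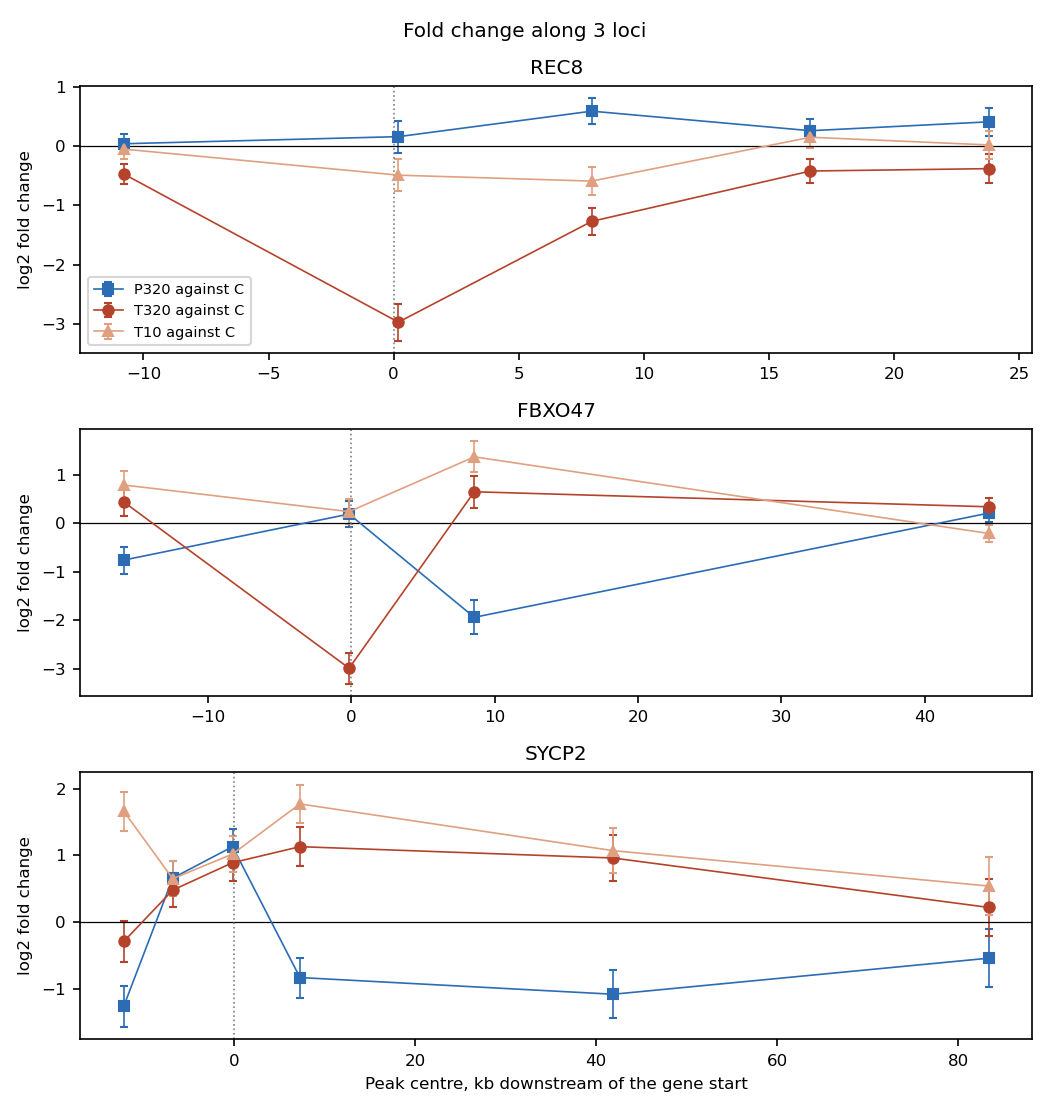
Log2 fold change against C (vertical axis, error bars 1 SE) of each peak of REC8, FBXO47 and SYCP2 by the distance of its centre from the gene start in kb (downstream to the right), for T10, T320 and P320. At FBXO47 the T320 values go from -2.99 at the start to 0.65 inside the gene, and the P320 values from 0.19 to -1.94.

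SYCP2, a component of the chromosome axis, was more accessible at 1 peak inside the gene in all 7 adapted populations, and at its start in those from T10 to T80. The start peak (chr20:59932976-59934584) is shared with FAM217B on the other strand, and its counts cannot be split between the genes. It had 21.7 and 25.4 CPM in C. The T5 libraries had 22.4 and 30.1 CPM, those of T10 46.8 and 48.7, and those of T20 41.5 and 58.3. At T40 they had 34.7 and 61.7 CPM, at T80 42.7 and 58, at T160 28.5 and 41.1, and at T320 36.5 and 50.5. The acute exposures had 36.9 and 38.7 CPM in P10 and 50.6 and 52.9 in P320. Every library from T10 on, and every P library, was above both C libraries, and T5 overlapped C. The peak rose in P320 (1.13 ± 0.27, adjusted p = 0.0061) and in the 4 populations from T10 to T80, by 1.02, 1.08, 1.04 and 1.10 in dose order. T160 (0.57, adjusted p = 0.11) and T320 (0.89, adjusted p = 0.012) did not reach both thresholds. These calls depend on the scaling: with TMM from gene-start peaks all 5 were lost, at 0.62 for P320 and 0.77 to 0.85 for T10 to T80, and with the offset for the region the 4 of the adapted populations were lost, at 0.67 to 0.79. Leaving out C replicate 1, or replicate 2 of the population itself, also ended each of those 4 calls. The 184 peaks of the 5 Mb window had a median of 0.27 in T10, 0.44 in T40 and 0.40 in T320 against C.

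A peak inside SYCP2, 7297 bp from the start (chr20:59925224-59927456), separated adapted from acutely exposed cells. It had 9.68 and 16.5 CPM in C. The T5 libraries had 24 and 29 CPM, those of T10 36 and 54.5, those of T20 41.4 and 59.7, and those of T40 34.4 and 47. At T80 they had 32.5 and 36.9 CPM, at T160 32.1 and 46.5, and at T320 24.2 and 33.8. In P10 it had 5.29 and 6.67 CPM and in P320 8.40 and 6.54. All 14 adapted libraries were above C and all 4 acute libraries below it. It rose in all 7 adapted populations, from 1.00 in T5 to 1.93 ± 0.29 in T20 (adjusted p = 7.6e-05) and 1.13 ± 0.29 in T320 (adjusted p = 0.0040), and fell in P10 (-1.15 ± 0.30, adjusted p = 0.0074). P320 measured -0.83 ± 0.30 (adjusted p = 0.056). Differences at equal dose passed as well, 2.92 ± 0.31 for T10 against P10 (adjusted p = 2.0e-06) and 1.96 ± 0.30 for T320 against P320 (adjusted p = 2.9e-05). The calls in T5 and T320 were lost with the offset for the region (0.83 and 0.81), and also without C replicate 1 (0.68 and 0.82), T5 replicate 1 or 2 (1.13, adjusted p = 0.056, and 0.86) or T320 replicate 2 (0.87). The P10 call was lost without C replicate 2 (-0.69, adjusted p = 0.19) and without P10 replicate 1 (-0.99). Those of T10 to T160 held under all alternatives run.

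The SYCP2 start and this peak did not follow each other, with a Pearson correlation of 0.222 over the 10 group means: in P320 the start rose while the peak in the gene was below C. A peak in the neighbour FAM217B, 12159 bp upstream of the SYCP2 start (chr20:59945377-59946216), resembled the peak in the gene (0.896). It had 3.45 and 5.52 CPM in C, 13.0 and 16.6 in T5, 14.8 and 17.3 in T20, 6.12 and 10.8 in T160, 4.28 and 3.32 in T320, 0.970 and 1.57 in P10, and 1.98 and 1.82 in P320. It was high from T5 to T20 and back in the range of C at T320. It rose in T5 (1.70 ± 0.29, adjusted p = 0.0013) and in the next 3 doses, by 1.66, 1.82 and 1.09, and fell in P10 (-1.84 ± 0.34, adjusted p = 0.00059) and P320 (-1.26 ± 0.31, adjusted p = 0.0090). From T160 to T320 it fell by 1.18 on the log2 scale (SE 0.30, adjusted p = 0.027), and over the adapted doses its slope was -0.30 ± 0.06 per doubling (adjusted p = 0.015). Leaving out T320 ended the call of the slope (-0.22, adjusted p = 0.082), and leaving out T160 replicate 2 or T320 replicate 2 ended that of the last step (-0.71 and -0.99). The T40 call was lost with both kinds of scaling offset (0.88 on gene-start peaks, 0.69 for the region) and without C replicate 1 (0.82) or T40 replicate 2 (0.96), and the P320 call without C replicate 2 (-0.86) or either P320 library (adjusted p = 0.069 and 0.091). The difference of T10 from P10 was 3.5 ± 0.33 (adjusted p = 8.1e-07), the largest of the 19 peaks tested in that comparison.

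The deepest SYCP2 peak in the gene, 41882 bp from the start (chr20:59891265-59892246), was low throughout, with 2.71 and 1.70 CPM in C, 4.54 and 3.90 in T320, 2.38 and 2.05 in P10, and 0.953 and 1.08 in P320. It rose in T10 (1.07), T20 (1.24) and T40 (1.12), and fell in P320 (-1.08 ± 0.36, adjusted p = 0.042). P320 was also lower than P10 (-1.12 ± 0.35, adjusted p = 0.031), and T320 exceeded P320 by 2.04 ± 0.35 (adjusted p = 0.00010). The values in C and P320 rest on 27 to 36 counts a library, and leaving out single libraries ended all of these calls but that of T320 against P320. The calls in T10, T20 and T40 were also lost with scaling on gene-start peaks (0.86, 1.00 with adjusted p = 0.079, and 0.89). The offset for the region ended them too (0.86, 0.92 and 0.71), and that of P320 against P10 (-0.99). A peak 83344 bp from the start, past the 3′ end, fell in P10 (-1.30 ± 0.46, adjusted p = 0.035), on 26 and 17 counts in that group, and every library left out ended the call. The peak at the start of PPP1R3D, a neighbour that encodes a phosphatase subunit, also covers a listed start of FAM217B. It had 31.6 and 46.1 CPM in C, 62.2 and 61.2 in P320 and 42.6 and 65.6 in T320, and passed in no comparison. Over the 10 group means its Pearson correlation with the shared start peak of SYCP2 and FAM217B was 0.926.

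**Figure D3:**
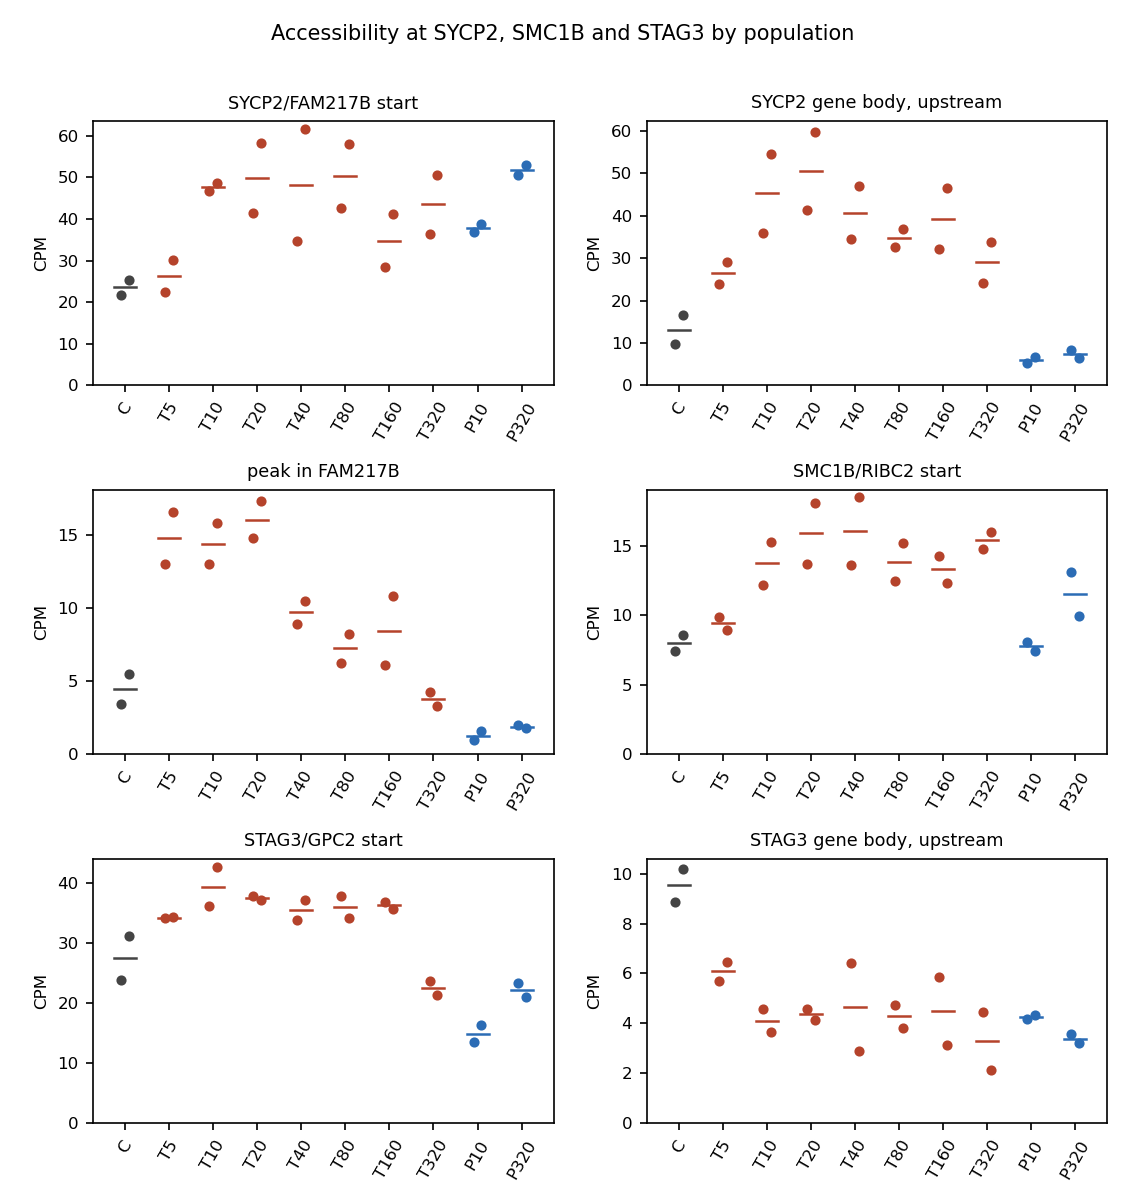
Accessibility in CPM (linear axis from 0) at SYCP2 and the neighbouring FAM217B, at the SMC1B start and at 2 STAG3 peaks, by population; points are libraries and bars the mean of 2. The upstream peak in SYCP2 has 24 CPM or more in each adapted library and 8.40 CPM or less in each acute one, while at the shared SYCP2 start every library of P10, P320 and T10 to T320 is above both C libraries and T5 overlaps C.

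SMC1B, the meiotic form of the SMC1 arm of cohesin, shares its start peak (chr22:45413014-45414598) with RIBC2 on the other strand and had no other peak. It had 7.47 and 8.58 CPM in C. The T5 libraries had 9.89 and 8.94 CPM, those of T10 12.2 and 15.3, those of T20 13.7 and 18.1, and those of T40 13.6 and 18.5. At T80 they had 12.5 and 15.2 CPM, at T160 14.3 and 12.3, and at T320 14.8 and 16. The acute groups had 8.07 and 7.45 CPM in P10 and 13.1 and 9.92 in P320. All adapted libraries and both P320 libraries lay above C, and P10 overlapped C. The rise reached the threshold in T40 (1.00 ± 0.22, adjusted p = 0.0018) and stopped short of the fold minimum in T20 (0.99 ± 0.22, adjusted p = 0.0022) and T320 (0.94 ± 0.22, adjusted p = 0.0023). Scaling by total counts (0.97) or on gene-start peaks (0.76) and the offset for the region (0.81) took the T40 value under that minimum, as did leaving out C replicate 1 (0.92) or T40 replicate 2 (0.76). P10 measured -0.05 ± 0.22 (adjusted p = 0.87), a value that was 0.02 in a fit of these groups alone, 0.06 without C replicate 2 and 0.00 without P10 replicate 2, and P320 0.52 ± 0.22 (adjusted p = 0.11).

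STAG3, the meiotic SA subunit of cohesin, shares its start peak (chr7:100176869-100178109) with GPC2, which encodes a glypican of the cell surface. The peak had 23.9 and 31.2 CPM in C. The T5 libraries had 34.1 and 34.3 CPM, those of T10 36.1 and 42.6, those of T160 36.8 and 35.7, and those of T320 23.6 and 21.3. It had 13.5 and 16.3 CPM in P10 and 23.4 and 21.0 in P320. P10 was the lowest group, and T5 to T160 lay above both C libraries while T320 lay below. No comparison with C reached both thresholds: T10 measured 0.51 ± 0.17 (adjusted p = 0.037), T320 -0.30 ± 0.18 (adjusted p = 0.18) and P10 -0.89 ± 0.18 (adjusted p = 0.0011). P10 passed with scaling on gene-start peaks (-1.09) and without C replicate 1 (-1.07) or P10 replicate 2 (-1.03). T10 exceeded P10 by 1.40 ± 0.18 (adjusted p = 1.0e-05). The 291 peaks of its 5 Mb window had a median of 0.59 in T10, 0.54 in T160 and -0.04 in T320 against C, and of 0.55 in T10 against P10. With the offset for the region, T10 against P10 measured 0.82 and was no longer called.

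Inside STAG3, 36299 bp from the start, a small peak (chr7:100213435-100214612) that also lies in the transcribed pseudogene CASTOR3P was highest in untreated cells. It had 8.86 and 10.2 CPM in C. The T5 libraries had 5.69 and 6.47 CPM, those of T10 4.59 and 3.64, and those of T320 4.45 and 2.15. The acute groups had 4.19 and 4.32 in P10 and 3.56 and 3.2 in P320. Every library of the other 9 groups lay below both C libraries. It fell in P10 (-1.17 ± 0.36, adjusted p = 0.018), in P320 (-1.50 ± 0.36, adjusted p = 0.0070) and in T10 to T320, between -1.08 in T40 and -1.58 ± 0.37 in T320 (adjusted p = 0.0023). Single libraries carried these calls: leaving out C replicate 2 ended 6 of them, among them P10 (adjusted p = 0.11), and leaving out T320 replicate 2 ended that of T320 (-1.10, adjusted p = 0.066). The P320 call was lost without either P320 library (adjusted p = 0.059 and 0.083), and those of P10 and T10 to T160 also without a library of their own group. A peak in GPC2, 6115 bp upstream of the STAG3 start (chr7:100171171-100172047), rose in P10 (1.07), P320 (1.21) and T40 (1.01), from 2.22 and 4.1 CPM in C to 8.29 and 5.27 in P10, 8.82 and 6.17 in P320 and 7.70 and 5.51 in T40. The calls were lost without C replicate 1 (0.72, 0.87 and 0.67), without replicate 1 of the group itself (0.71, 0.98 and 0.76) and with scaling on gene-start peaks (0.90, 0.73 and 0.85), and that of T40 also with the replicate block (0.99). The other STAG3 peaks, the downstream one in the gene (4.02 to 4.08 CPM in T320, 2.97 to 5.01 in C) and those near TRAPPC14, at GAL3ST4 and in CASTOR3P, passed in no comparison.

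**Figure D4:**
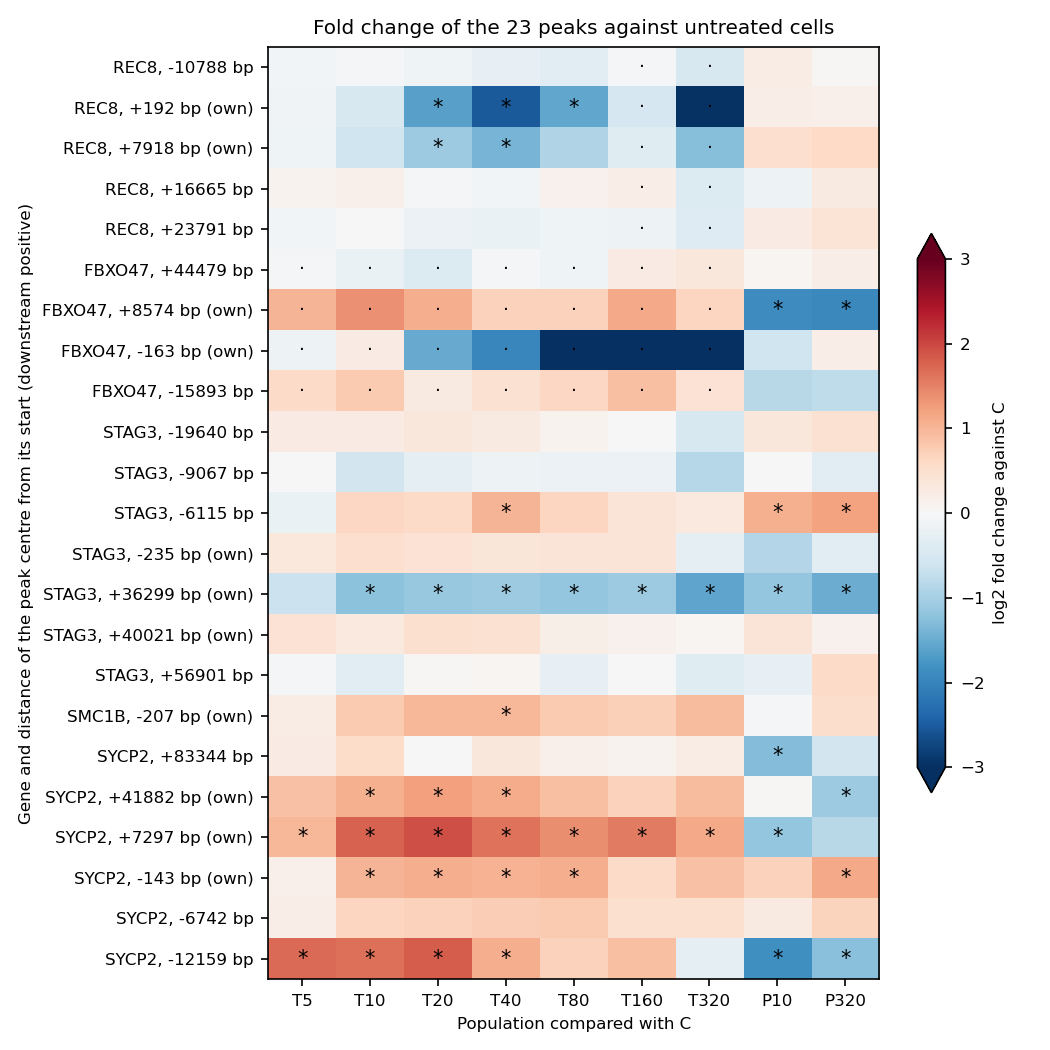
Log2 fold change against C (colour, red higher and blue lower) of the 23 peaks in the 9 other populations, ordered by gene and labelled with the distance of the peak centre from the gene start in bp. Asterisks mark tested values past both thresholds. Dots mark values that were not tested, those of all REC8 or FBXO47 peaks in the populations whose libraries were used to choose that gene. The upstream peak in SYCP2 carries an asterisk in all 7 adapted populations, and the FBXO47 gene-body peak in P10 and P320.

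The tested peaks of the 5 genes were also counted beside the share called over all peaks, and several counts rested on single libraries or on the scaling. In P10, 6 of 23 peaks were called (1 higher, 5 lower), against 22.1% of all peaks, and in P320 also 6 of 23 (2 higher, 4 lower), against 11.8%. T5 had 2 of 19 called (9.19% of all peaks), T10 had 5 of 19 (17.7%) and T20 had 7 of 19 (24.5%). T40 reached 9 of 19 (25.2%) and T80 4 of 19 (26.0%). The 14 peaks that remain when those of REC8 and FBXO47 are set aside gave 2 in T160 (23.5%) and 2 in T320 (30.5%). T320 against T160 called 1 of 14 (3.86%), T320 against P320 2 of 14 (34.2%), T10 against P10 6 of 19 (32.9%) and P320 against P10 1 of 23 (13.8%). The dose trend called 1 of 14 (5.72%). The P320 count was 2 without P320 replicate 1 and 3 without P320 replicate 2. That of T40 was 4 with TMM from gene-start peaks or with the offset for the region, and 5 without C replicate 1 or T40 replicate 2. That of T320 against C was 0 without T320 replicate 2 and 4 without C replicate 2. No direction against the share of all peaks is therefore read from these counts. Several of these comparisons share the C libraries, so their counts are not independent.

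Among the other genes of meiosis and the germ line, 3 passed in T320 against C: SPDYA and BOLL were lower and KASH5 was higher. Each gene is represented by its peak within 1 kb of a RefSeq start. Of 11961 protein-coding genes with such a peak, 8.90% were called in T320 against C (535 higher, 529 lower, median 0.13) and 14.9% in P320 against C (1737 higher, 51 lower, median 0.41). The lists held 4 represented genes of meiotic cohesin, 6 of the synaptonemal complex and axis, and 14 of meiotic recombination. Those of telomere attachment with F-box partners and of germ cells held 9 and 3. No departure from the 8.90% of all genes is read from the 3 calls among them. Of the 4 genes for meiotic cohesin, RAD21L1, a second meiotic closing subunit, had 11.6 and 12.1 CPM in T320 and 8.21 and 6.51 in C, at 0.69 ± 0.24 (adjusted p = 0.023), under the fold minimum. Among 6 represented genes of the synaptonemal complex and axis and 14 of meiotic recombination, 0 were called in T320, with medians of 0.36 and 0.11. In the list of telomere attachment and F-box partners, SPDYA, the activator of CDK2 at meiotic telomeres, fell from 13.5 and 12.3 CPM in C to 4.79 and 4.26 in T320 (-1.52 ± 0.20, adjusted p = 1.5e-05). KASH5, which links telomeres to dynein across the nuclear envelope, rose in T320 from 4.02 and 6.03 to 8.05 and 13.3 CPM (1.08 ± 0.25, adjusted p = 0.0022). FBXO47 also belongs to that list and was not tested in this comparison, and the other 6 represented members did not pass.

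General cohesin and its regulators had 0 of 15 called in T320, with SMC1A at 0.18, SMC3 at 0.36 and STAG2 at 0.18. In P320, 2 of the 15 rose: PDS5A (1.44 ± 0.20, adjusted p = 0.00014) and WAPL (1.18 ± 0.25, adjusted p = 0.0031), which together release cohesin from DNA. That is 13.3% of this list, near the 14.5% higher in P320 over all genes with a start peak, so it is not read as a trait of the list. P320 also gave 2 rises among 9 represented genes of the telomere and F-box list. They were SUN2 of the nuclear envelope (1.38) and CUL1, the scaffold of SCF ligases (1.11). PDS5A (1.07) and SUN2 (1.30) rose in P10 as well, where 8.25% of all genes with a start peak were higher. Among 3 represented germ cell genes, MAEL, of the piRNA pathway, rose in P320 (1.04) and fell in T10 (-1.43) at a start it shares with ILDR2, and BOLL, an RNA-binding protein of spermatocytes, fell in T320 (-1.23, adjusted p = 0.022). Lower in T10 were 1.49% of all genes with a start peak.

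Repressors of germline genes had 1 of 19 called in T320. DNMT3A, a DNA methyltransferase, fell from 16.2 and 21.6 CPM in C to 6.76 and 5.20 in T320 (-1.69 ± 0.24, adjusted p = 2.3e-05). E2F6 itself measured -0.34 ± 0.31 (adjusted p = 0.39) in T320. YAF2 (1.17) and RYBP (1.34), subunits of variant Polycomb complexes, rose in P320. They are 10.5% of the 19, against 14.5% higher in P320 over all genes with a start peak. In the same T320 comparison 4 of 6 represented epithelial and serous markers fell, CLDN3 (-1.49), WT1 (-1.46), MUC16 (-1.30) and MECOM (-1.03). Lower in T320 were 4.42% of all genes with a start peak. KRT8 measured 0.59 (adjusted p = 0.0071), under the fold minimum, and PAX8 -0.14 (adjusted p = 0.62). REC8 and FBXO47 were chosen by falls that involve T320, and these 4 markers are named because they fell there. That all are lower in this 1 comparison therefore follows from the choice and is not read as a result. In P320, P10 and T10 against C, 0 of the 6 represented markers were called, with list medians of 0.60, 0.25 and -0.45. In P320 the 4 markers measured 0.88 (CLDN3), 0.69 (MECOM), 0.30 (WT1) and -0.32 (MUC16). The markers were not examined in the other adapted populations, and any link between them and REC8 or FBXO47 was not tested. With TMM factors from gene-start peaks, all log2 fold changes against C shift by -0.12 in T320, -0.22 in P10 and -0.52 in P320. That is more than the margin by which KASH5 in T320, PDS5A in P10 and each of the P320 rises named here passed the fold minimum.

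Among 12130 other start peaks, those most like the REC8 start over the 10 group means of log2 CPM were LGR6 (Pearson 0.983), CDKN2A (0.982), CDKN2B (0.979), CTDSP1 (0.979) and the start shared by TUBA4A and TUBA4B (0.974). Their mean in C, T40, T160 and T320 was 53.8, 0.502, 13.7 and 0.561 CPM for CDKN2A and 16.7, 9.92, 16.1 and 9.04 CPM for LGR6, so the shape was shared and the depth was not. LGR6 measured -0.76 in T40 and -0.89 in T320 against C, near the medians of its own 5 Mb window (-0.91 and -0.81). CTDSP1 (-1.03 and -1.17) and the start of TUBA4A and TUBA4B (-0.98 and -1.31) share a window with medians of -1.28 and -1.25. The starts most like that of FBXO47 were CAPN9 (0.968), ZNF692 (0.966), NTPCR (0.962), NUP133 (0.958) and the start of FSAF1 and GNPAT (0.958). CAPN9 had means of 10.4 CPM in C, 13.4 in T10, 6.13 in T20 and 3.71 in T160. All 5 lie on chromosome 1, between positions 229507684 and 248859725, while FBXO47 is on chromosome 17. The medians of their 5 Mb windows in T160 against C ran from -1.24 at NUP133 to -0.87 at ZNF692, against 0.42 around FBXO47. At CDKN2A and CDKN2B, on chromosome 9, the window had -1.07 in T40 and -0.58 in T320. These correlations rest on 10 points that share their libraries and on a choice among all start peaks.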

How the data were processed

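The deposited table holds read counts per consensus peak for 20 libraries (2 in each of 10 groups), described by the authors, per the labels, as reads per peak, and whole numbers throughout. MACS2, Bowtie2, HOMER 4.1, deepTools 3.1 and 3.5.1, Trim Galore, SAMtools, Picard, DESeq2 and the build GRCh38 are named in the submitters' processing notes, without their roles. Whether reads or fragments were counted and whether peak starts count from 0 is not given in the sources used here, and coordinates stand as deposited.

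All 105048 peaks of the 20 libraries were fitted in 1 model with edgeR 4.0.16 (R 4.3.3, quasi-likelihood, robust, TMM, no replicate block). filterByExpr removed 0 peaks. CPM come from edgeR with TMM. The standard error of a log2 fold change is its absolute value divided by the square root of the F statistic of its test. Calls needed an adjusted p (Benjamini-Hochberg) below 0.05 and a log2 fold change of 1 or more in absolute value. The dose trend used counts summed over the 2 replicates of each adapted population against log2 dose, with calls from an absolute slope of 0.25 up. The fit was tested on simulated data. Errors cover counting and the spread of 2 libraries.

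Gene bodies, start sites, strands and sequences are RefSeq's (GRCh38.p14); exon positions were not used. The text names all peaks of the 5 genes within 1 kb of the body, other peaks within 20 kb that were called against C, called list members (up to 4 a list), and the 5 start peaks most like those of REC8 and FBXO47. Neighbouring and list genes that were not called, and the motif letters, were chosen after their values were seen. The genes, lists and tests were chosen with earlier results of these data known.

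Same-numbered libraries of C and the T populations deviated together from their group means (correlations 0.193 to 0.595 over 28 pairs of groups), and pairs with a P group did not (-0.108 to 0.0015 over 17). The labels number the replicates without naming a shared batch. Replicates of a group differed beyond counting noise (chi-square per degree of freedom 2.11 to 8.48), so no library was counted as a copy. Alternatives were other scalings (DESeq2 1.42.0 as tool and as size factors), an offset removing the median shift of each 5 Mb window, filters (at least 2 CPM in 2 libraries, or none), a replicate block, a fit of the compared groups, no fold minimum, a 1 kb window, and each library left out.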

Additional observations from a re-analysis of the deposited data

Results flagged for a closer look

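Adapted and acutely exposed cells differed at the same dose by a test of the difference itself at 6 peaks, 2 of them at both doses, in log2 units of T minus P. At 10 uM these were the REC8 3′ peak (-1.10), the STAG3 start (1.40), the SYCP2 gene-body peaks 41882 bp (1.03) and 7297 bp (2.92) from the start, the peak past the SYCP2 3′ end (1.84) and the peak in FAM217B (3.5). At 320 uM they were the same SYCP2 gene-body peaks, at 2.04 and 1.96. These were 6 of 19 tested peaks at 10 uM and 2 of 14 at 320 uM. Of all peaks, 32.9% and 34.2% were called in these comparisons, so the counts are not read as a trait of the 5 genes. The T cells were sorted and no sort is named for the P cells, so sort and adaptation cannot be told apart. Same-numbered C and T libraries deviated together, and pairs with a P group did not. Whatever lies behind that cannot be told apart from adaptation either. The 7297 bp peak and the peak in FAM217B kept their call at 10 uM under every alternative run. The STAG3 start lost it with the window offset (0.82), and the 41882 bp peak at 10 uM in several settings, among them that offset (0.89).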

How the results depend on the processing

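Counts of called peaks over the 5 genes moved by more than 1.5 times in these settings. With TMM from gene-start peaks, T10 went from 5 to 3 and T40 from 9 to 4. With the 5 Mb window offset, T20 went from 7 to 4, T40 from 9 to 4, T320 against C from 2 to 1 and P320 against P10 from 1 to 0. Without the fold minimum, T80 gave 8, T160 4, T320 against C 7, T320 against T160 2, T320 against P320 6 and P320 against P10 3. The strict filter gave 1 in T5. With the 1 kb window, P10 gave 3, T5 1, T320 against T160 0 and the trend 0, since fewer peaks were counted. The trend gave 0 without T320. Elsewhere the cause was not tested.

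With 1 library left out, the lone library being assumed to vary like the other groups, counts ran from 2 to 5 in P10 and P320, 1 to 2 in T5, 2 to 4 in T10, 4 to 7 in T20, 5 to 8 in T40, 2 to 6 in T80, 1 to 3 in T160, 0 to 4 in T320, 0 to 1 in T320 against T160, 2 to 4 in T320 against P320, 5 to 5 in T10 against P10 and 0 to 0 in P320 against P10. Signs that turned, all of values not called, were the REC8 start in P10 (-0.01) and P320 (-0.34) and the FBXO47 start in P320 (-0.31) with TMM from gene-start peaks, the latter also with the window offset (-0.06), and with 1 C library left out the REC8 start (-0.01 to 0.37) and the FBXO47 start (-0.05 to 0.48) in P320. The SMC1B start in P10 went to 0.02 with only the groups compared and ran from -0.14 to 0.06 with 1 library left out, at 0.06 without C replicate 2 and 0.00 without P10 replicate 2.

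With the replicate block, which uses the pairing of the numbers, counts were the same in all comparisons but T40, where 8 peaks in place of 9 were called, because the peak in GPC2 went to 0.99 (adjusted p = 0.017). A block over C and T libraries alone, added after seeing the data, gave 9. Depth limits the weakest peaks, such as that past the SYCP2 3′ end with 26 and 17 counts in P10.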
